A study of Mus musculus with 4 samples.

Results

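Elastic fibres are built by a small set of extracellular proteins, and the 10 genes described here encode elastin (Eln), the fibrillins Fbn1 and Fbn2, the fibulins Fbln1 and Fbln5, the latent TGF-beta binding proteins Ltbp1, Ltbp2, Ltbp3 and Ltbp4, and the cross-linking enzyme lysyl oxidase (Lox). They were chosen from gene families, not all members of which are included, with earlier results of these data known. Other fibulin genes and the lysyl oxidase-like genes were placed in a wider pathway list. Peaks of FLAG-tagged HOXA5 at the 10 genes were read from peak lists of chromatin immunoprecipitation followed by sequencing (ChIP-seq). HOXA5 is a homeodomain transcription factor that acts in the lung mesenchyme. A peak was assigned to a gene when its summit lay inside the gene's annotated span, or within 100 kb of it with that gene as the nearest protein-coding one. By this rule 7 of 7121 listed peaks belonged to the 10 genes, 3 of 4289 in replicate 1 and 4 of 2832 in replicate 2. The 10 genes are among 21779 protein-coding genes considered.

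The HOXA5-FLAG immunoprecipitates were 2 libraries from lungs of E15.5 mouse embryos of genotype Hoxa5FLAG/FLAG, in which both copies of Hoxa5 are knock-in alleles that add a FLAG tag to the protein. The 2 input libraries, from lungs of the same stage and genotype, were not analysed here, and neither was an untagged control. Without these, a peak cannot be told here from enrichment that does not come from tagged HOXA5. The abbreviation wt in the sample titles stands beside that tagged genotype, and the peaks of the library labelled replicate 2 are named with a different replicate number. Genotype and replicate were taken from the labels. The lungs were disrupted as tissue, so the lists do not say in which cells a peak arose. No label tells if separate litters were used for the replicates. Each peak carries a fold enrichment at its summit and a −log10 q, both computed by the authors within 1 list. They are given side by side for the replicates and were neither averaged nor tested between lists. With 2 libraries of 1 group no test over samples exists, so all that follows is description.

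In the extracellular matrix, fibrillins assemble into microfibrils, on which elastin monomers are deposited and then joined by lysyl oxidase. Fbln5 and Ltbp4 encode proteins that guide elastin onto the microfibrils. Latent TGF-beta binding proteins are related to the fibrillins and tie the inactive growth factor complex to the same matrix, except that the Ltbp2 protein does not bind latent TGF-beta. In the lung, elastic fibres run in airway and vessel walls and later in the rims of the alveolar septa, where mesenchymal cells lay them down.

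Of the 10 genes, Fbln1, Ltbp1 and Ltbp2 had 1 peak each in both replicates, in each case at overlapping positions (a shared peak). Fbn1 had a peak in replicate 2 alone, and the other 6, Eln, Fbn2, Fbln5, Ltbp3, Ltbp4 and Lox, had none in either list. Of all protein-coding genes, 5.97% had a shared peak, 10.4% a replicate 1 peak and 7.58% a replicate 2 peak. No genome sequence was used here, so the bases under the peaks are not shown. Because the 3 shared peaks lay near the starts of their genes, the 180 bases just outside each gene's annotated span on the start side are printed from RefSeq (GRCm38.p6, the mm10 build), written 5′ to 3′ on the gene's own strand. The windows are chr15:85205769-85205948 (plus strand) for Fbln1, chr17:75005300-75005479 (plus strand) for Ltbp1 and chr12:84876559-84876738 (minus strand) for Ltbp2. Capitals mark the homeodomain core TAAT or its reverse complement ATTA.
Fbln1: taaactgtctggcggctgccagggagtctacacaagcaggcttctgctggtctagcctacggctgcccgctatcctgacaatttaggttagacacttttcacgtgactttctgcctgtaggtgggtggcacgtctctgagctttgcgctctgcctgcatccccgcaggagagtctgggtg
Ltbp1: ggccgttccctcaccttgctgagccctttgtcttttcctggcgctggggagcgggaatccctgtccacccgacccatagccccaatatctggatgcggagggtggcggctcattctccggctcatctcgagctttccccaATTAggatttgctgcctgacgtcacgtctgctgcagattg
Ltbp2: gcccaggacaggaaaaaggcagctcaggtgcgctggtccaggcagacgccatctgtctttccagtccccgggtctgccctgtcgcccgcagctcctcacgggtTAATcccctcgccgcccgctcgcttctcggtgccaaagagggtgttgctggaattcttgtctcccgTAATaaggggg

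No HOXA5-FLAG peak reached any of these windows. The motifs TAAT, TGATTNAT (a HOX-PBX composite) and TGACAG (a MEIS core) were searched on both strands. The Fbln1 window held none of them. The Ltbp1 window held 1 ATTA, which began 40 bases before the gene span. The Ltbp2 window held 2 TAAT, at 77 and 11 bases before it, and neither of the other motifs was found in any of the 3. Among 13148 protein-coding genes with such a window, 41.6% held TAAT, 1.84% held TGATTNAT and 11.9% held TGACAG. A TGATTNAT match with A in the open place also contains TAAT. The GC content of the printed windows was 56.7% (Fbln1), 59.4% (Ltbp1) and 62.8% (Ltbp2), against a median of 55.0% over all windows. These matches describe the letters in the windows and nothing about binding there.

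Of the latent TGF-beta binding protein genes, Ltbp1 and Ltbp2 had a shared peak and Ltbp3 and Ltbp4 had none. Over all protein-coding genes the share with one was 5.97%. Ltbp2, which encodes a microfibril protein related to the fibrillins, had the strongest of the 3 shared peaks. It lay inside the gene, at chr12:84864812-84865225 in replicate 1 and chr12:84864866-84865138 in replicate 2. Fold enrichment was 9.74 in replicate 1, the 262nd highest of 4289, and 5.22 in replicate 2, the 372nd of 2832, with −log10 q of 90.3 and 28.0. The summits were 8 bp apart and lay 11.5 kb into the gene from its annotated start. The replicate 2 peak fell wholly within the replicate 1 peak, covering 65.9% of it. No other annotated gene spanned either summit, and the next protein-coding gene, Arel1, was 53.1 kb away.

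Ltbp1 encodes a protein that binds the latent TGF-beta complex and stores it in the matrix. Its peak lay upstream, outside the gene, at chr17:74998258-74998660 in replicate 1 and chr17:74998250-74998653 in replicate 2. Fold enrichment was 4.61 in replicate 1 (rank 1459) and 3.16 in replicate 2 (rank 1644), with −log10 q of 19.5 and 8.94. The summits were 5 bp apart, and 396 bp were common to both peaks, 98.3% of the replicate 1 peak and 98.0% of the replicate 2 peak. They lay 7.14 and 7.15 kb before the annotated start. The gene spans 387 kb, the longest of the 10, and no peak summit of either list lay inside it. The next protein-coding gene, Ttc27, was 135 kb from the peak.

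Ltbp3 and Ltbp4, which also bind latent TGF-beta, had no peak. Ltbp4 spans 34.6 kb, and the nearest summits were 290 kb from it in replicate 1 and 318 kb in replicate 2. The nearest to Ltbp3, of 17.6 kb, were 752 kb away in both lists, inside Npas4. Coding genes crowd both loci, so 22.2 kb of sequence would be assigned to Ltbp3 and 47.3 kb to Ltbp4, against 480 kb to Ltbp1.

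**Figure D1:**
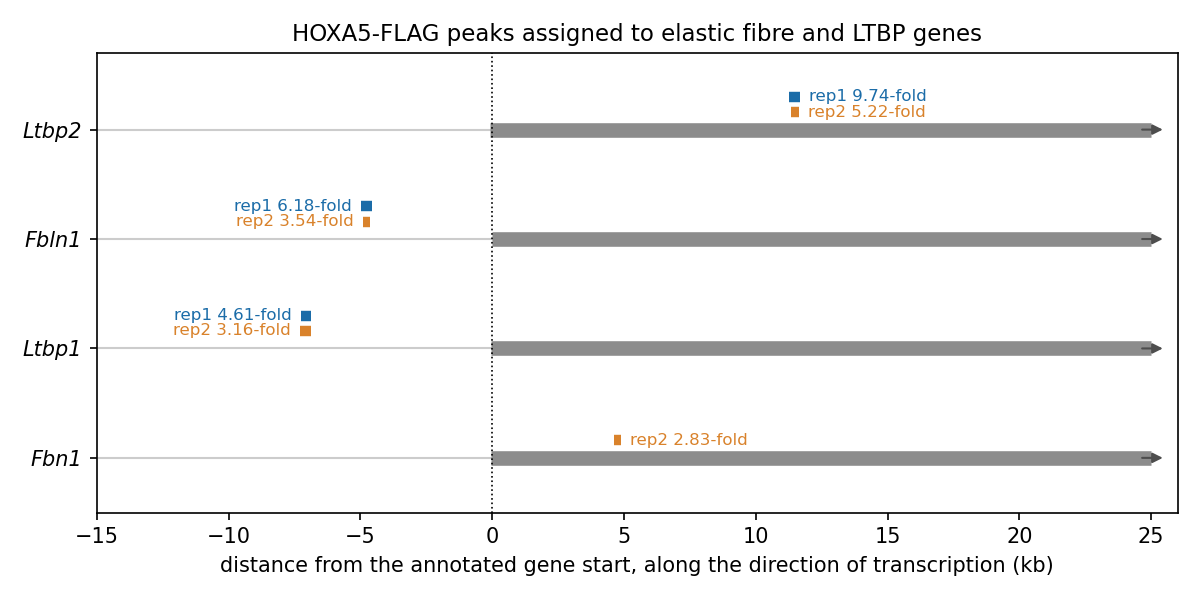
Positions of the peaks assigned to Ltbp2, Fbln1, Ltbp1 and Fbn1, as distance from the annotated gene start in kb along the direction of transcription. Grey bars are the gene spans, arrows mark spans that run on past the plot, and coloured blocks are the peaks of replicate 1 (blue, upper) and replicate 2 (orange, lower) with their fold enrichment. The Fbln1 and Ltbp1 peaks lie before the start and the Ltbp2 and Fbn1 peaks inside the gene, with a replicate 2 peak alone at Fbn1.

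Of the 2 fibulin genes among the 10, Fbln1, whose product binds elastin and other matrix proteins, had a shared peak and Fbln5 had none. The fibulin genes Fbln2, Fbln7, Efemp1 and Efemp2 of the wider pathway list had no peak in either replicate. Most protein-coding genes had none, with 5.97% holding a shared peak, 10.4% a replicate 1 peak and 7.58% a replicate 2 peak. The Fbln1 peak lay at chr15:85200972-85201393 in replicate 1 and chr15:85201060-85201322 in replicate 2. Fold enrichment was 6.18 in replicate 1 (rank 719) and 3.54 in replicate 2 (rank 1236), with −log10 q of 35.5 and 12.2. The summits were 42 bp apart, 4.78 and 4.73 kb before the gene start. As at Ltbp2, the shorter replicate 2 peak was contained in the replicate 1 peak. Ribc2, on the far side, was 56.6 kb away. For Fbln5 the nearest summit in replicate 1 was 400 kb from the gene, at 2.65-fold, and in replicate 2 it was 401 kb away, at 2.24-fold. Both stood nearest to Catsperb.

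The fibrillin genes held no shared peak. Their spans are 206 kb for Fbn1 and 202 kb for Fbn2. Of all protein-coding genes of at least 100 kb, 23.3% had a shared peak. Fbn1, which encodes the main fibrillin of postnatal microfibrils, had a replicate 2 peak at chr2:125501543-125501806, inside the gene and 4.75 kb from its start. It was weak in its list, with 2.83-fold enrichment (rank 2018 of 2832) and −log10 q of 4.41 (rank 2376). The nearest replicate 1 summit was 533 kb from the gene. Fbn2, the fibrillin made mainly in embryonic tissue, had its nearest summits 245 kb away in replicate 1 (4.02-fold) and 196 kb away in replicate 2 (3.01-fold).

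Elastin itself had no assigned peak in either list. The nearest summits to Eln were in replicate 1, 134 kb away inside Syna (5.48-fold) and 143 kb away nearest to Tmem270 (4.39-fold), and neither had a replicate 2 partner. In replicate 2 the nearest was 636 kb away. Lox had peaks in its neighbourhood that the rule gave to other genes. A replicate 1 peak of 4.64-fold lay 37.4 kb from Lox but inside Srfbp1. A replicate 1 peak of 3.28-fold at 83.7 kb and a replicate 2 peak of 3.21-fold at 87.1 kb did not overlap and belonged to Zfp474. The nearest shared peak, 105 kb from Lox at 4.50-fold in replicate 1 and 3.60-fold in replicate 2, was inside Zfp474. These were the closest peaks outside the rule, while the assigned peaks were all inside a gene or at most 7.1 kb from it, far from the 100 kb limit.

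**Figure D2:**
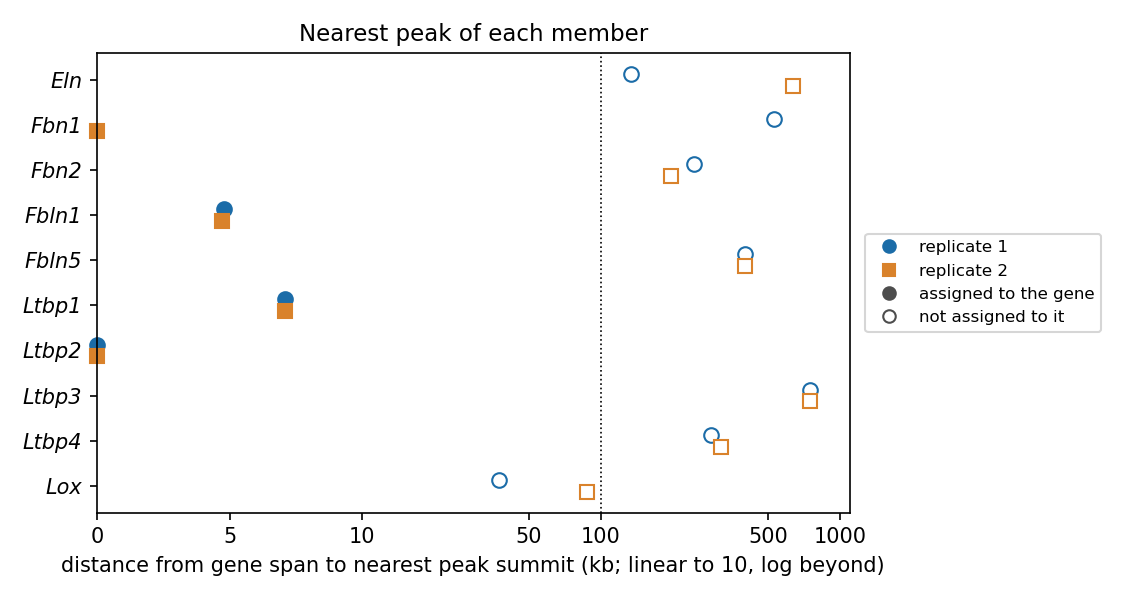
Distance in kb from each of the 10 gene spans to the nearest peak summit in replicate 1 (circles) and replicate 2 (squares), linear to 10 kb and logarithmic beyond. A distance of 0 is a summit inside the gene, filled symbols are peaks assigned to that gene, and the dotted line is the 100 kb limit. Ltbp2, Fbln1 and Ltbp1 have filled symbols from both lists, Fbn1 from replicate 2 alone, and the Lox symbols inside the limit are open.

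The 3 shared peaks ran in the same order in both lists, with Ltbp2 highest, Fbln1 next and Ltbp1 lowest. Among the 2175 shared peaks of the series, Ltbp2 ranked 256th by replicate 1 fold and 371st by replicate 2 fold. Fbln1 ranked 609th and 1161st, and Ltbp1 955th and 1467th. The median over all shared peaks was 4.23-fold in replicate 1 and 3.63-fold in replicate 2, so Ltbp2 stood above both medians, while Fbln1 and Ltbp1 stood above the replicate 1 median and below the replicate 2 one. All 7 assigned peaks were 263 to 422 bp long, against median lengths of 414 bp in the replicate 1 list and 436.5 bp in the replicate 2 list. Shared peaks had a median replicate 1 length of 525 bp, above those of Ltbp1 (403 bp), Ltbp2 (414 bp) and Fbln1 (422 bp). Summit gaps of 5, 8 and 42 bp compare with a median of 32 bp over all shared peaks.

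**Figure D3:**
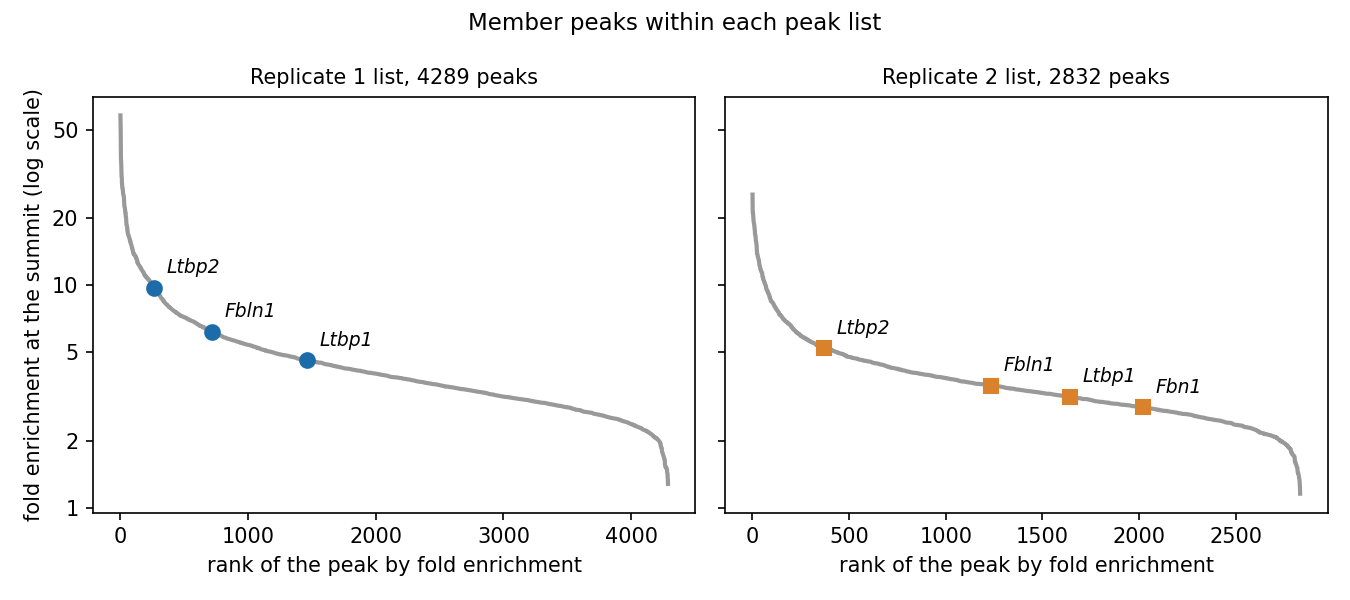
Fold enrichment at the summit (log axis) against the rank of each peak by fold, in the replicate 1 list of 4289 peaks (left) and the replicate 2 list of 2832 peaks (right). The grey line is the whole list and the marked points are the peaks assigned to the named genes. Ltbp2 stands at 9.74 and 5.22, Fbln1 at 6.18 and 3.54, Ltbp1 at 4.61 and 3.16, and Fbn1 appears in replicate 2 alone at 2.83.

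Each of these 3 peaks lay closer to a gene start than most shared peaks did. Over 1206 shared peaks whose gene has an annotated start in the RefSeq promoter windows, the median distance to the nearest start was 48.9 kb (quartiles 18.8 and 103 kb). Of these, 7.05% lay nearer than the Fbln1 peak, 10.7% nearer than the Ltbp1 peak and 15.4% nearer than the Ltbp2 peak. Distance to the start was looked at after the positions were known, and 3 peaks cannot show a general tendency. Eln, Fbn2 and Lox are not among the genes with a window.

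**Figure D4:**
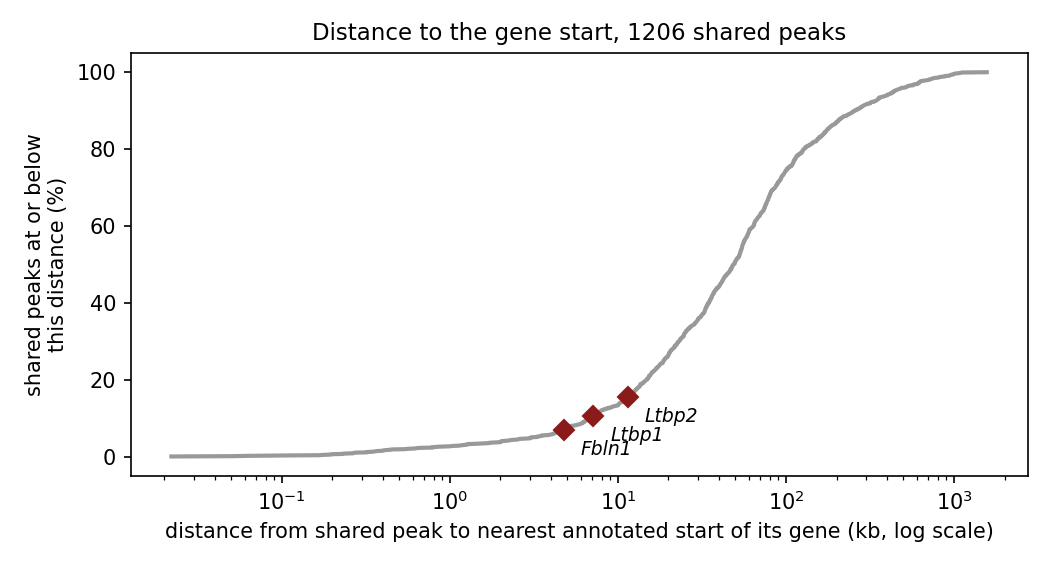
Cumulative share in percent of 1206 shared peaks by distance to the nearest annotated start of their gene (kb, log axis). Diamonds mark the Fbln1, Ltbp1 and Ltbp2 peaks, at 4.78, 7.14 and 11.5 kb, where 7.05%, 10.7% and 15.4% of the shared peaks lie nearer.

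Counted as genes, 3 of the 10 had a shared peak, against 5.97% of all 21779 protein-coding genes. In replicate 1 alone 3 of the 10 had a peak, against 10.4% of all, and in replicate 2 alone 4 of the 10, against 7.58%. Length moves these shares. Of the 3 genes of at least 100 kb (Fbn1, Fbn2 and Ltbp1), 1 had a shared peak, against 23.3% of all protein-coding genes of that length. Of the 7 shorter ones 2 had one (Fbln1 and Ltbp2), against 3.8% of all shorter genes. Fbln1 spans 80.3 kb and Ltbp2 93.3 kb, both near the 100 kb cut. The 3.8% is taken over all lengths below that cut, so it is not matched to their length. Per base assigned, the 10 genes held 1.79 shared peaks per Mb (3 in 1.68 Mb), against 0.827 per Mb over all protein-coding genes. Replicate 1 peaks stood at 1.79 per Mb against 1.67, and replicate 2 peaks at 2.39 per Mb against 1.09. The shared-peak density of the 10 genes rests on 3 peaks, at genes chosen with earlier results known. None of these counts and densities was tested.

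The rest of the pathway was read from a list of 34 other genes. Of these, 6 had a shared peak, against 5.97% of all protein-coding genes. A replicate 1 peak was assigned to 10, against 10.4% of all, and a replicate 2 peak to 6, against 7.58%. The 13 microfibril and elastic fibre associated genes (Efemp1, Efemp2, Mfap2, Mfap4 and others) had no shared peak, and the single-list peak among them was a replicate 1 peak 34.9 kb from the proteoglycan gene Dcn (3.66-fold). The 4 genes of elastin-degrading proteases had no peak in either list. Among the 4 lysyl oxidase-like genes, Loxl4 had a shared peak at 36.6 kb from the gene where enrichment was 2.33-fold in replicate 1 and 2.70-fold in replicate 2. Loxl1, needed for elastin renewal, held a replicate 1 peak alone (2.81-fold).

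Among the 5 genes of the ADAMTS family whose products bind fibrillin, 2 had a shared peak, against 5.97% of all protein-coding genes. Thsd4, which encodes a protein that promotes fibrillin microfibril assembly, held 3 within its span of 555 kb. They stood at 11.3-, 11.1- and 6.14-fold in replicate 1 and 4.33-, 7.61- and 4.78-fold in replicate 2. Adamts10 had one 19.4 kb from the gene at 4.76-fold in replicate 1 and 4.20-fold in replicate 2. Adamts17, of 313 kb, held 2 replicate 1 peaks (5.12- and 2.91-fold) without a partner. Thsd4 and Adamts17 are long genes, and 23.3% of protein-coding genes of at least 100 kb had a shared peak.

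Of the 8 genes of latent TGF-beta and its activation, 3 had a shared peak, against 5.97% of all protein-coding genes. Tgfb1, Tgfb2 and Tgfb3, the growth factor genes themselves, had no shared peak. The highest stood 72.5 kb from Thbs1, whose product thrombospondin can release TGF-beta from its latent complex, at chr2:118039083-118039713, where fold enrichment reached 21.1 in replicate 1 and 11.9 in replicate 2. A second Thbs1 peak at 82.1 kb had 5.94- and 5.59-fold. Lrrc32 encodes a cell surface anchor for latent TGF-beta and had 2 neighbouring shared peaks, 22.5 and 23.2 kb from the gene, at 5.43- and 3.42-fold in replicate 1 and 3.53- and 4.10-fold in replicate 2. Itgb6, a subunit of an integrin that activates latent TGF-beta, held one with 5.66-fold in replicate 1 and 3.30-fold in replicate 2. Its span is 124 kb, and 23.3% of protein-coding genes of at least 100 kb had a shared peak. Itgb8, which encodes a subunit of another integrin that activates latent TGF-beta, held a replicate 1 peak alone (3.12-fold). With assignment limited to 10 kb, 3 of the 10 genes (Fbln1, Ltbp1 and Ltbp2) and 2 of the 34 (Thsd4 and Itgb6) had a shared peak, against 3.95% of all protein-coding genes at that limit. A peak assigned by distance need not act on that gene.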

How the data were processed

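ChIP-seq was measured in 4 libraries, of which the 2 immunoprecipitates had peak lists used here. Per the labels' protocols, 20 µg of chromatin from formaldehyde-fixed lungs, sonicated to fragments of 200 to 500 bp on average, went into each FLAG immunoprecipitation. Per the submitters' processing notes the tools included Bowtie2 2.5.2, SAMtools 1.18, bedtools 2.31.0 and MACS3 3.0.1, with the mm10 build. Which settings and control the peak caller had is not given in the sources used here. The authors deposited a separate peak list for each replicate, with no pooled calls. The deposited fold enrichment is a ratio at the summit, and the deposited −log10 p and −log10 q are the authors' values, with every −log10 q above 2. The deposited score was not used. Read counts are not part of these lists, which leaves the depth unknown.

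Peaks overlapping by at least 1 bp between lists were merged into shared peaks, placed at the replicate 1 summit. Genes came from RefSeq (GRCm38.p6). Of 49943 genes, 340 were dropped because they start below 3 Mb (chromosome Y excepted), which was taken as a sign of scaffold positions. Gene starts and strands came from RefSeq promoter windows, which cover 17492 of the protein-coding genes and 7 of the 10 described. Overlap and assignment were tested on simulated data. The computations used Python 3.11.15 and pandas 2.3.3. All 10 genes are named, with every gene of the pathway list that had a shared peak, and single-list peaks of that list were named after their values were seen. The genes, the pathway list and the alternatives were chosen with earlier results of these data known.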

Additional observations from a re-analysis of the deposited data

How the results depend on the processing

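The count of 3 genes with a shared peak, and the 3 peaks themselves, stayed at 3 for Fbln1, Ltbp1 and Ltbp2 under 9 settings, while the share of all protein-coding genes with a shared peak, 5.97% as reported, moved. That share was 5.49% with reciprocal overlap of at least 50%, 4.54% with summits within 100 bp, 4.96% with −log10 q of at least 5 and 4.68% with peaks of at most 1000 bp. It was 5.29% with a limit of 50 kb, 3.95% with 10 kb and 6.68% with 200 kb (added after the data were seen), 4.50% with assignment among all annotated genes, and 5.97% with replicate 2 summits. A fold of at least 4 in both lists left 1 gene and 1 peak, at Ltbp2 (2.39% of all genes), and so did counting summits inside the gene span alone (3.25%). Those 2 settings shorten the peak list or drop the upstream peaks by construction. The −log10 q and length cuts also shorten the list. Most of the 9 unchanged counts were likewise fixed by the peak values given above. Distances, summit gaps, lengths, overlaps and −log10 q of the 3 peaks already met those cuts, so these counts are no evidence of stability. With 1 list in place of both, the counts ran from 3 (replicate 1 alone, 10.4% of all genes) to 4 (replicate 2 alone, which adds Fbn1, 7.58%). For the list of 34 other genes, the count of 6 became 2 with a limit of 10 kb. It became 4 with reciprocal overlap, which dropped Loxl4 and Itgb6. With 1 list it ran from 6 (replicate 2 alone) to 10 (replicate 1 alone). No paired analysis was possible because the inputs were not analysed here, so only 1 group had values. The unknown depth limits what the absence of a peak can mean.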
